A study of Mus musculus with 8 samples.

Results

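The genes described here encode enzymes and membrane proteins of the lysosome, its proton pump and the regulator TFEB. They were chosen by symbol: all probes whose annotation on the Illumina MouseRef-8 V2 array named 1 of 36 genes were taken, which gave 53 of the 25662 probes on the array and covered 34 of the 36 genes. RNA came from mouse neural progenitor cells (NPC) at E14.5 on a mixed C57BL/6 X 129S1/SvlmJ background. In 4 samples the genotype was Prmt5F/FNes, a floxed Prmt5 gene deleted by Cre under the Nestin promoter of neural progenitors, called Prmt5-depleted here. In 4 control samples the genotype was Prmt5F/F, the same floxed gene without Cre, so effects of Cre and of Prmt5 loss cannot be told apart. The labels do not say whether the 4 samples of a genotype are separate embryos or cultures, so the p-values reflect only how far these samples differ.

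The lysosome is the acidic organelle in which proteins, glycans and lipids are broken down. Its lumen is acidified by a proton pump, the V-ATPase, made of a membrane sector (V0) and a cytosolic sector (V1) that hydrolyses ATP. Soluble hydrolases such as the cathepsins work at this low pH, while glycosylated membrane proteins such as LAMP1 and LAMP2 line the inside of the membrane. Neural progenitors use lysosomes for turnover by autophagy, and inherited loss of several of these enzymes causes storage diseases that affect neurons. TFEB is a transcription factor that activates many lysosomal genes through a short palindromic E-box in their promoters.

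All 3 Prmt5 probes were 6.06-fold to 8.45-fold lower in Prmt5-depleted cells than in controls. The mean signal of an array was between 449 and 598 before normalization. Of the listed genes, 30 passed the detection filter (detection p under 0.05 on at least 4 of the 8 arrays), and 28 of these had a probe detected on all 8. The exceptions were Laptm5, detected on 4 Prmt5-depleted and 3 control arrays, and Ctss, detected on 2 Prmt5-depleted and 4 control arrays. No probe of Ctsl, Ctso, Gla or Tfeb passed the filter, and for Cd68 and Npc1 no probe carried the symbol in the annotation used here. Along the second principal component (10.5% of the variance) Prmt5-depleted 1 and 3 and control 4 lay apart from the other 5 arrays, so counts are also given without them.

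The lysosomal genes did not move as 1 group. A rise was called for 12 of the 30 measured genes and a fall for 8, and the other 10 did not pass (limma, adjusted p under 0.05). Among all 9001 genes tested, 24.0% were higher and 24.5% lower (48.6% in either direction), so the counts amount to 40% and 26.7% of the measured lysosomal genes against these shares. Their median log2 change was 0.12, against -0.04 for all genes tested. At probe level 15 of the 43 tested probes were higher and 11 lower, beside 22.1% and 24.7% of all probes tested. The genotypes did not overlap in 11 genes that were higher and 5 that were lower in Prmt5-depleted cells, where 22.6% and 22.2% of all genes tested behaved in these ways. Without Prmt5-depleted 1 and 3 and control 4, 10 genes rose and 5 fell. The number that fell was also 5 without Prmt5-depleted 1, Prmt5-depleted 3, control 2 or control 3 alone. Calls of 14 genes held under each alternative in which they were measured, 9 of them higher (Atp6v0d1, Atp6v1a, Atp6v1h, Ctsf, Ctsh, Grn, Lamp1, Laptm4a and Laptm5) and 5 lower (Ctsa, Ctsc, Gusb, Man2b1 and Mcoln1).

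**Figure D1:**
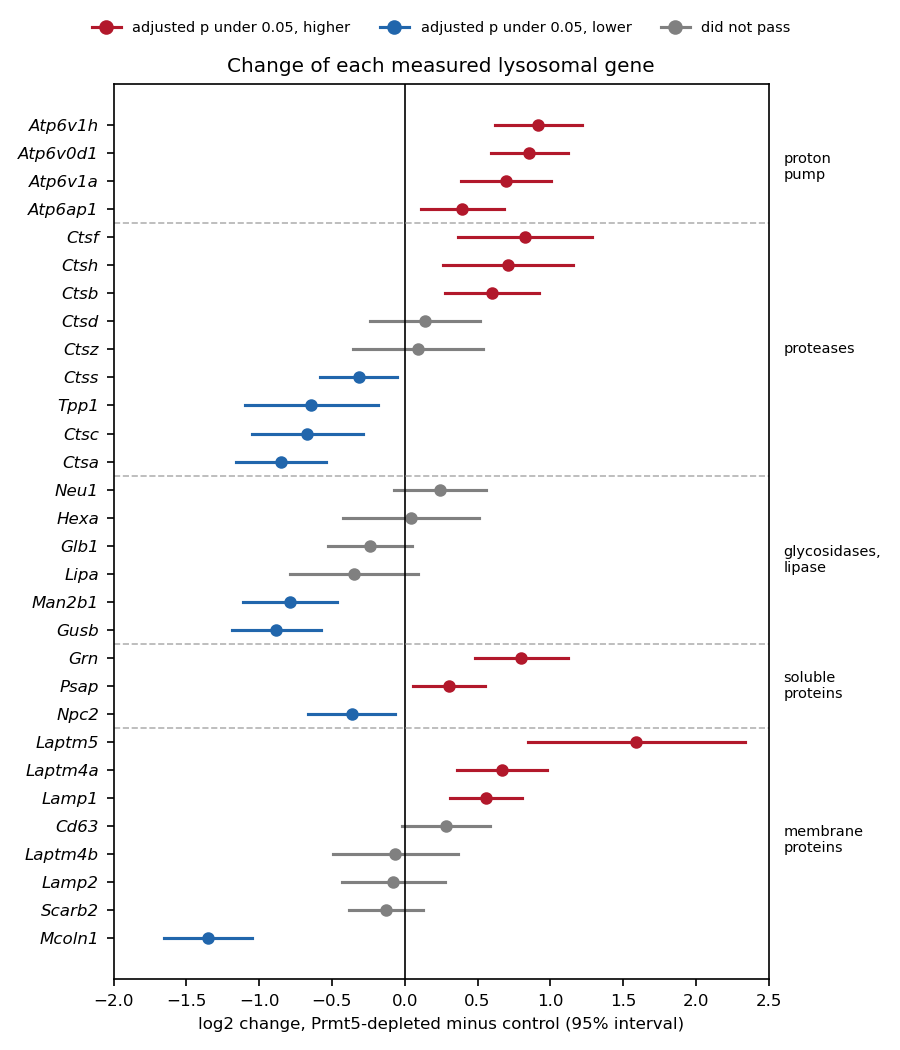
Log2 change (x axis, Prmt5-depleted minus control) of the 30 measured genes with its 95% interval, by role; red marks genes that rose, blue genes that fell and grey genes that did not pass. The 4 pump genes lie between 0.40 and 0.92, while the genes with the lowest and the highest change are the membrane protein genes Mcoln1 (-1.35) and Laptm5 (1.59).

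Tfeb itself was not measurable. Its probes ILMN_1235592 and ILMN_2939434 were detected on none of the 8 arrays. At ILMN_1235592 the log2 signal was 4.795, 4.75, 4.68 and 4.70 on Prmt5-depleted 1 to 4, against 4.53, 4.57, 4.59 and 4.92 on control 1 to 4. At ILMN_2939434 it was 4.69, 4.61, 4.68 and 4.84 on Prmt5-depleted 1 to 4, against 4.61, 4.65, 4.66 and 4.83 on control 1 to 4. These values overlapped and all lay near background, so a change of Tfeb could not be seen on these arrays.

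Promoters of the listed genes were searched for the E-box bound by TFEB and its relatives. RefSeq windows (build GRCm38.p6) of 250 bases before to 50 after a gene's start were at hand for 31 of the 36 genes. The motifs CACGTG and TCACGTGA each read the same on both strands, and the longer contains the shorter. CACGTG was in a window of 10 of the 31 genes (32.3%), of 11.9% of the 7374 genes tested on the arrays that had a window, and of 8.09% of all 27025 genes with one. TCACGTGA was in 6 of the 31 (19.4%), against 2.21% of the tested genes and 1.12% of all. TCACGTGA with a further G before it and a C after it was in 0 of the 31, against 0.773% and 0.37%. CACGTG was present in 4 of 9 genes that rose, 2 of 8 that fell and 2 of 9 that did not pass, so it was found on both sides. These are matches of letters, not shown binding sites. Shown next are the 150 bases before the start of 5 called genes that hold a match wholly before it, because they stand on both sides: Atp6v1a, Ctsf and Lamp1 rose, and Mcoln1 and Ctsa fell. The windows are Mcoln1 (chr8:3500369-3500518, plus strand), Ctsa (chr2:164833623-164833772, plus strand), Atp6v1a (chr16:44139260-44139409, minus strand), Ctsf (chr19:4855015-4855164, plus strand), Lamp1 (chr8:13159011-13159160, plus strand). Each runs 5′ to 3′ on the strand of the gene, and capitals mark CACGTG or TCACGTGA.
Mcoln1: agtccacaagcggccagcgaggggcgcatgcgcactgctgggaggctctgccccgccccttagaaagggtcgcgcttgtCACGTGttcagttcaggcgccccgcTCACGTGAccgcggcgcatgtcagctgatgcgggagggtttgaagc
Ctsa: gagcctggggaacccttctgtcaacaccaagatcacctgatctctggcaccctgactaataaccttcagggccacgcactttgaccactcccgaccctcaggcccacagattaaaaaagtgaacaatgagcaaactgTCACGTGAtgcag
Atp6v1a: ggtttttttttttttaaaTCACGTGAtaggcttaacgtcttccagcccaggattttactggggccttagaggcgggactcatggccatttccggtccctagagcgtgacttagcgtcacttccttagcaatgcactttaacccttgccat
Ctsf: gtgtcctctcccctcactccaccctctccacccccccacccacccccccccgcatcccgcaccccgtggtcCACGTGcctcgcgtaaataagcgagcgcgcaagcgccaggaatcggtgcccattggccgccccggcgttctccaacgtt
Lamp1: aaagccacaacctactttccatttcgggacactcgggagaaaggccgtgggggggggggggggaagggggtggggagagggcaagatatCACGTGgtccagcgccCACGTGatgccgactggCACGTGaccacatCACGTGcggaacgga
The CACGTG within TCACGTGA began 45 bases before the start in Mcoln1, 12 in Ctsa and 131 in Atp6v1a. Ctsf holds the shorter motif alone, 79 bases before the start, and Lamp1 holds CACGTG 4 times in this stretch. Ctsa holds a second TCACGTGA just after the start, and in Atp6v0d1 a TCACGTGA lies across the start itself. These matches are not shown.

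The proton pump was the role in which the members moved together. All 4 listed pump genes rose, by 1.32-fold to 1.89-fold, where 24.0% of all genes tested rose. Atp6v1h, a regulatory subunit of V1, rose 1.89-fold (adjusted p = 0.000187). Atp6v0d1, which links V0 to the stalk of V1, had log2 signals of 12.37, 12.12, 12.48 and 12.37 on Prmt5-depleted 1 to 4, against 11.36, 11.44, 11.46 and 11.66 on control 1 to 4. Every Prmt5-depleted array lay above every control array, and the rise of 0.86 ± 0.12 on the log2 scale (± standard error here and below for log2 changes) came to 1.81-fold, with an adjusted p of 0.000124. The other 3 probes of Atp6v0d1 also rose, with log2 changes of 0.86, 0.92 and 0.98. Atp6v1a, the catalytic subunit of V1, rose 1.62-fold (adjusted p = 0.00166). Atp6ap1, an accessory protein of pump assembly, rose 1.32-fold (adjusted p = 0.0248). It no longer passed when Prmt5-depleted 1, Prmt5-depleted 2, control 1 or control 4 was left out (adjusted p between 0.0535 and 0.0652), and its log2 change was 0.16 when arrays were scaled to a common median. Without the 3 arrays that lay apart, 3 of the 4 pump genes rose.

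The rest of the pump was described from a list of 18 further genes, of which 15 were measured. Rises were called for 8 (53.3%) and a fall for 1 (6.67%), beside 24.0% and 24.5% of all genes. The other 6 did not pass, and the list median was 0.34. Atp6v1g2, the neuronal form of the G subunit, rose 2.81-fold (adjusted p = 1.11e-06), Atp6v1e1, a stalk subunit, rose 1.86-fold, and Atp6v1b2, the widely expressed nucleotide-binding B subunit, rose 1.68-fold. Atp6v1g1, the widely expressed form of the G subunit, fell 1.38-fold (adjusted p = 0.0226), opposite to Atp6v1g2. That fall was the single one on the list, and the count of falls was 0 without Prmt5-depleted 2, Prmt5-depleted 4, control 3 or control 4. Without the 3 arrays that lay apart, 7 of the 15 rose and 1 fell.

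Markers of neurons were higher in the same samples. Of 14 measured neuronal markers, 13 rose (92.9%, against 24.0% of all genes) and 0 fell. The remaining marker, Tubb3, did not pass (log2 change -0.185, adjusted p = 0.273) and was detected on 2 arrays of each genotype. The summed background-corrected signal of the 16 markers with a probe was 27615 to 30450 on Prmt5-depleted arrays and 8626 to 9720 on control arrays. Snap25 and Nefl were detected on none of the arrays. Fewer or more cells of a type and less or more RNA per cell cannot be told apart in bulk RNA, and the part of neurons in the rise of the pump genes was not tested.

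**Figure D2:**
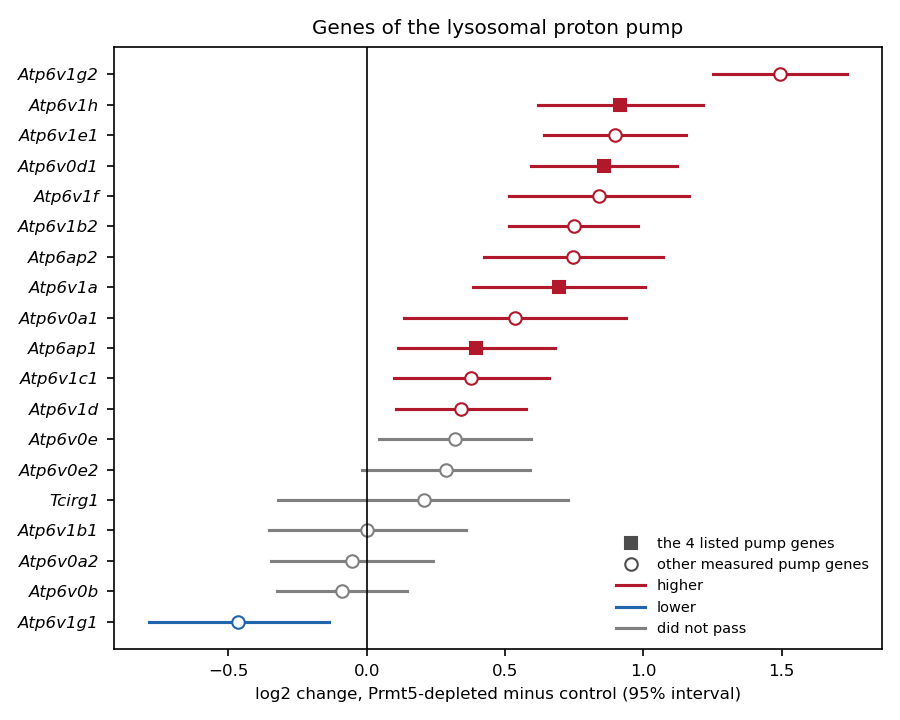
Log2 change (x axis, Prmt5-depleted minus control) with its 95% interval for the 4 listed pump genes (filled squares) and the 15 other measured pump genes (open circles). Atp6v1g2 has the highest change at 1.49, and Atp6v1g1 is the gene that fell, at -0.46.

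Proteases were called in both directions. Of 11 listed, 9 were measured, with 3 rises (33.3%, against 24.0% of all genes), 4 falls (44.4%, against 24.5%) and 2 that did not pass. The 3 rises were cathepsins. Ctsf, a cysteine protease of the papain family, rose 1.77-fold (adjusted p = 0.00668). Ctsh, an aminopeptidase, rose 1.64-fold (adjusted p = 0.0128). Ctsb, a widely expressed cysteine cathepsin, rose 1.52-fold (adjusted p = 0.00558), which became 0.35 on the log2 scale with an adjusted p of 0.0555 under median scaling. Ctsa, the carboxypeptidase that also protects neuraminidase and beta-galactosidase, had log2 signals of 6.27, 6.23, 6.29 and 6.83 on Prmt5-depleted 1 to 4, against 7.26, 7.29, 7.26 and 7.21 on control 1 to 4. The 4 control values were nearly equal, and all Prmt5-depleted arrays lay below them, with Prmt5-depleted 4 nearest. The log2 change of -0.85 ± 0.14 came to a 1.80-fold fall, with an adjusted p of 0.000433. The other 3 probes of Ctsa were detected on at most 2 arrays of a genotype and were not tested.

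Ctsc, which activates serine proteases of immune cells, fell at each of its 3 probes, with log2 changes of -0.57, -0.67 and -0.83. Tpp1, the tripeptidyl peptidase lacking in a childhood form of neuronal ceroid lipofuscinosis, fell 1.56-fold (adjusted p = 0.0243). Tpp1 did not pass once Prmt5-depleted 1, 3 or 4 or control 2 or 3 was left out (adjusted p between 0.0516 and 0.0729). Ctss, a cathepsin of antigen-presenting cells, fell 1.24-fold from a signal near background (adjusted p = 0.0481). It did not pass once Prmt5-depleted 1, 2 or 3 or control 2, 3 or 4 was left out (adjusted p between 0.0556 and 0.126), and also in the fit of all probes (adjusted p = 0.0538). Ctsd, the main aspartic protease of lysosomes, had log2 signals of 6.00, 5.52, 6.38 and 6.13 on Prmt5-depleted 1 to 4, against 5.98, 5.74, 5.74 and 6.00 on control 1 to 4. The genotypes overlapped (log2 change 0.14, 95% interval -0.24 to 0.52, adjusted p = 0.53). Both probes of Ctsz, a carboxypeptidase, also overlapped, with log2 changes of 0.09 and 0.15. Ctsl was detected on 1 of 8 arrays and Ctso on 0.

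None of the measured glycosidases and the lipase rose. Of 6 measured, 2 fell (33.3%, against 24.5% of all genes) and 4 did not pass. Gusb, the beta-glucuronidase of glycosaminoglycan breakdown, had log2 signals of 9.14, 9.26, 9.11 and 8.86 on Prmt5-depleted 1 to 4, against 9.95, 9.99, 10.25 and 9.72 on control 1 to 4. The arrays did not overlap, and the log2 change of -0.88 ± 0.14 came to a 1.85-fold fall, with an adjusted p of 0.000295. Its other probes fell too, with log2 changes of -0.79 and -0.98. Man2b1, the lysosomal alpha-mannosidase, fell 1.73-fold (adjusted p = 0.000913). Glb1, the beta-galactosidase, had a log2 change of -0.24 (adjusted p = 0.153), which was -0.33 and passed without control 4. Lipa, the acid lipase of cholesteryl esters, had a log2 change of -0.35 (adjusted p = 0.173), which was -0.55 and passed without control 1. Hexa, the alpha subunit of beta-hexosaminidase, and Neu1, the neuraminidase, had log2 changes of 0.04 and 0.24 and did not pass. Gla was detected on none of the arrays.

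Together the proteases, glycosidases and lipase gave 15 measured hydrolases, with 3 rises (20%), 6 falls (40%) and 6 that did not pass, beside 24.0% and 24.5% of all genes, and a median log2 change of -0.24. Without the 3 arrays that lay apart, 3 rose and 4 fell. In a further list of lysosomal enzymes and lumenal proteins, 7 of 27 measured genes rose (25.9%) and 9 fell (33.3%), shares near those of all genes, with a median of -0.22. Ids, the iduronate sulfatase, rose 2.35-fold, the acid sphingomyelinase Smpd1 rose 1.92-fold and Pld3, a lysosomal nuclease rich in neurons, rose 2.11-fold. Gm2a, the activator of ganglioside GM2 breakdown, fell 2.04-fold, and the galactocerebrosidase Galc fell 1.74-fold. Adjusted p-values of these named genes lay between 2.34e-05 and 0.000208. Dnase2a, which degrades DNA in lysosomes, was detected on 0 Prmt5-depleted and 4 control arrays, so it passed the filter only through the controls. It was at least 1.85-fold lower, a bound because none of the Prmt5-depleted arrays detected it.

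Among soluble proteins that are no hydrolases, Grn, the precursor of granulins and the gene of a dominantly inherited frontotemporal dementia, had log2 signals of 10.09, 10.38, 10.23 and 10.41 on Prmt5-depleted 1 to 4, against 9.35, 9.69, 9.70 and 9.18 on control 1 to 4. All Prmt5-depleted arrays were above all controls, and the log2 change of 0.80 ± 0.15 came to a 1.74-fold rise, with an adjusted p of 0.00077. Psap, the precursor of the saposins that help enzymes degrade sphingolipids, rose 1.23-fold (adjusted p = 0.045). Psap did not pass once Prmt5-depleted 1 or 3 or any 1 control array was left out (adjusted p between 0.0655 and 0.144), the log2 change was 0.06 under median scaling, and the fit of all probes gave an adjusted p of 0.0515. Npc2, which hands cholesterol to NPC1, fell 1.29-fold (adjusted p = 0.042), and did not pass once Prmt5-depleted 1, 3 or 4 or control 2, 3 or 4 was left out (adjusted p between 0.0642 and 0.104).

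The membrane proteins held the largest rise and the largest fall of the listed genes that were measured. Rises were called for 3 of the 8 measured (37.5%) and a fall for 1 (12.5%), beside 24.0% and 24.5% of all genes. Both counts were the same without the 3 arrays that lay apart. Mcoln1, the calcium-permeable channel TRPML1 of late endosomes and lysosomes, had log2 signals of 5.74, 6.13, 6.05 and 6.23 on Prmt5-depleted 1 to 4, against 7.18, 7.40, 7.39 and 7.58 on control 1 to 4. The gap between the genotypes exceeded the range within either, and the log2 change of -1.35 ± 0.14 came to a 2.55-fold fall, with an adjusted p of 1.11e-05. Mcoln1 was the 1 listed gene called lower by at least 2-fold, as were 5.85% of all genes tested. Its log2 change was -0.86 in the authors' processed values, which have no background correction.

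Lamp1, the major glycoprotein of the lysosomal membrane, had log2 signals of 12.10, 12.21, 12.33 and 12.40 on Prmt5-depleted 1 to 4, against 11.65, 11.83, 11.69 and 11.64 on control 1 to 4. The genotypes did not overlap, and the log2 change of 0.56 ± 0.11 came to a 1.47-fold rise, with an adjusted p of 0.00164. Laptm4a, a small transmembrane protein of late endosomes, rose 1.59-fold (adjusted p = 0.00218). Its relative Laptm4b, at its brighter probe, had a log2 change of -0.07 (adjusted p = 0.802). Cd63, a tetraspanin of late endosomes and exosomes, did not pass at any of its 3 probes, with log2 changes of -0.13, 0.06 and 0.28. Scarb2, the receptor that carries glucocerebrosidase to lysosomes, had a log2 change of -0.13 (95% interval -0.39 to 0.12).

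Laptm5, a lysosomal membrane protein of blood-derived cells, was the 1 listed gene called higher by at least 2-fold, as were 9.02% of all genes tested. Its log2 signals were 6.36, 6.95, 6.89 and 8.22 on Prmt5-depleted 1 to 4, against 6.16, 5.28, 5.25 and 5.37 on control 1 to 4. The groups did not overlap, but Prmt5-depleted 1 and control 1 lay close together and Prmt5-depleted 4 stood above the rest. The log2 change of 1.59 ± 0.34 came to a 3.01-fold rise with an adjusted p of 0.00236, and it was 1.22 without Prmt5-depleted 4 and 0.94 in the authors' processed values. Markers of microglia and macrophages were near background: 12 of the 19 with a probe were detected on none of the arrays, among them Itgam, Ptprc, Trem2, Tyrobp, C1qa and C1qc. Of the 2 that were measured, Cd14 rose 1.36-fold without overlap (adjusted p = 0.015) and Aif1 did not pass (adjusted p = 0.0739). Of the detected markers that the filter left out, Fcer1g and Adgre1 lay higher without overlap. Fcer1g was detected on 3 Prmt5-depleted and 0 control arrays, and Adgre1 on 2 and 0. C1qb, Cx3cr1 and Lyz2, each detected on 1 Prmt5-depleted and 0 control arrays, overlapped. Among all genes tested, 22.6% lay higher without overlap. The summed signal of the 19 was 230 to 380 on Prmt5-depleted arrays and 196 to 218 on control arrays. All 7 markers detected on any array had their highest value of the 8 arrays on Prmt5-depleted 4, the array on which Laptm5 was highest. Apart from Cd14, they were detected on 0 control arrays, so they entered this count only through the Prmt5-depleted arrays. A maximum on such an array was thus partly set by the choice of markers. Among the Prmt5-depleted arrays, Prmt5-depleted 4 was the highest for 26.3% of all genes tested. Both measured markers of erythroid cells rose, Hba-a1 at least 5.78-fold and Hbb-y at least 1.64-fold. They were detected on 4 Prmt5-depleted and 0 control arrays, so they passed the filter only through the Prmt5-depleted arrays. The summed erythroid signal was 249 to 396 on Prmt5-depleted arrays and 49 to 65 on control arrays, with Alas2, Hbb-bh1 and Slc4a1 not detected. The part of such cells in the rise of Laptm5 was not tested.

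Lamp2 gave different results by probe. Lamp2 is spliced to several forms that differ in their membrane end, 1 of which is the receptor of chaperone-mediated autophagy. Its 4 probes fall on 2 annotated RefSeq transcripts. ILMN_1217454 and ILMN_2605666, on the first, had log2 changes of -0.08 and -0.01 (adjusted p = 0.72 and 0.961 in the fit of all probes). ILMN_3074259, on the second, had log2 signals of 9.45, 9.66, 9.34 and 9.06 on Prmt5-depleted 1 to 4, against 8.27, 8.93, 8.996 and 8.82 on control 1 to 4. It rose by 0.62 on the log2 scale (adjusted p = 0.0139), whereas ILMN_3153207 on the same transcript had a log2 change of 0.31 (adjusted p = 0.138). The mean of the second pair minus that of the first was -1.901 ± 0.166 in Prmt5-depleted and -2.414 ± 0.177 in control samples (SD, n = 4 each). The difference of 0.51 is given as a description. Only the change of this difference can be read, since levels of different probes are not comparable. The comparison was chosen after the values were seen, so the p-value of a permutation run on it is not given. The sequences of the probes were not used here.

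**Figure D3:**
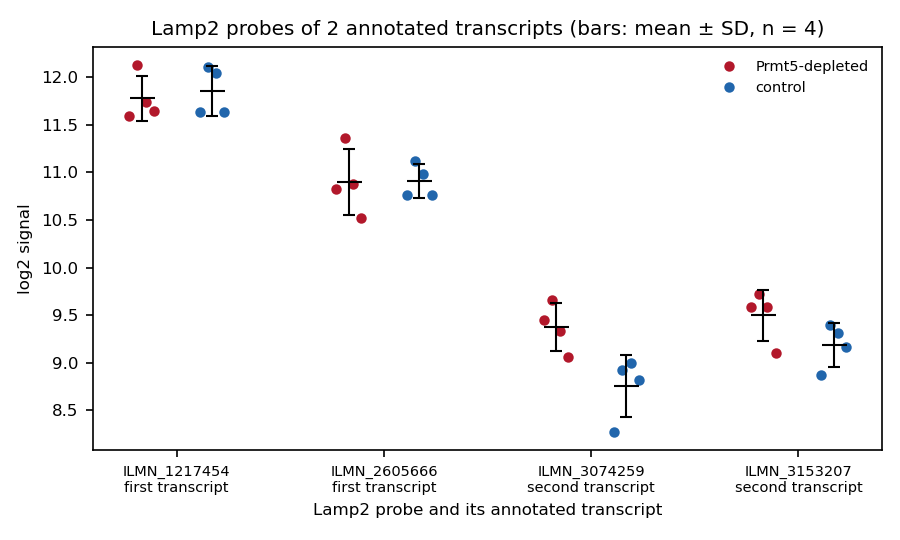
Log2 signal (y axis) of the 4 Lamp2 probes on each Prmt5-depleted (red) and control (blue) array, with mean ± SD in black (n = 4). The genotypes separate at ILMN_3074259 (9.06 and above against 8.996 and below) and overlap at the other probes.

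Listed genes varied together within a genotype as well. Among the Prmt5-depleted arrays, Prmt5-depleted 1 was the lowest for 19 of the 30 genes and the highest for 0, while Prmt5-depleted 2 was the highest for 18. Over all 9001 genes, Prmt5-depleted 1 was the lowest for 24% and Prmt5-depleted 2 the highest for 24.7%. Among the controls, control 3 was the highest for 14 of the 30 genes and control 4 the lowest for 15, against 18.9% and 30.7% of all genes. Ctsh, Ctsz, Hexa and Laptm4a were among the genes lowest on control 4, whereas the pump genes Atp6v0d1, Atp6v1a and Atp6v1h were highest on it. These shares are a description of 8 arrays and were not tested.

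**Figure D4:**
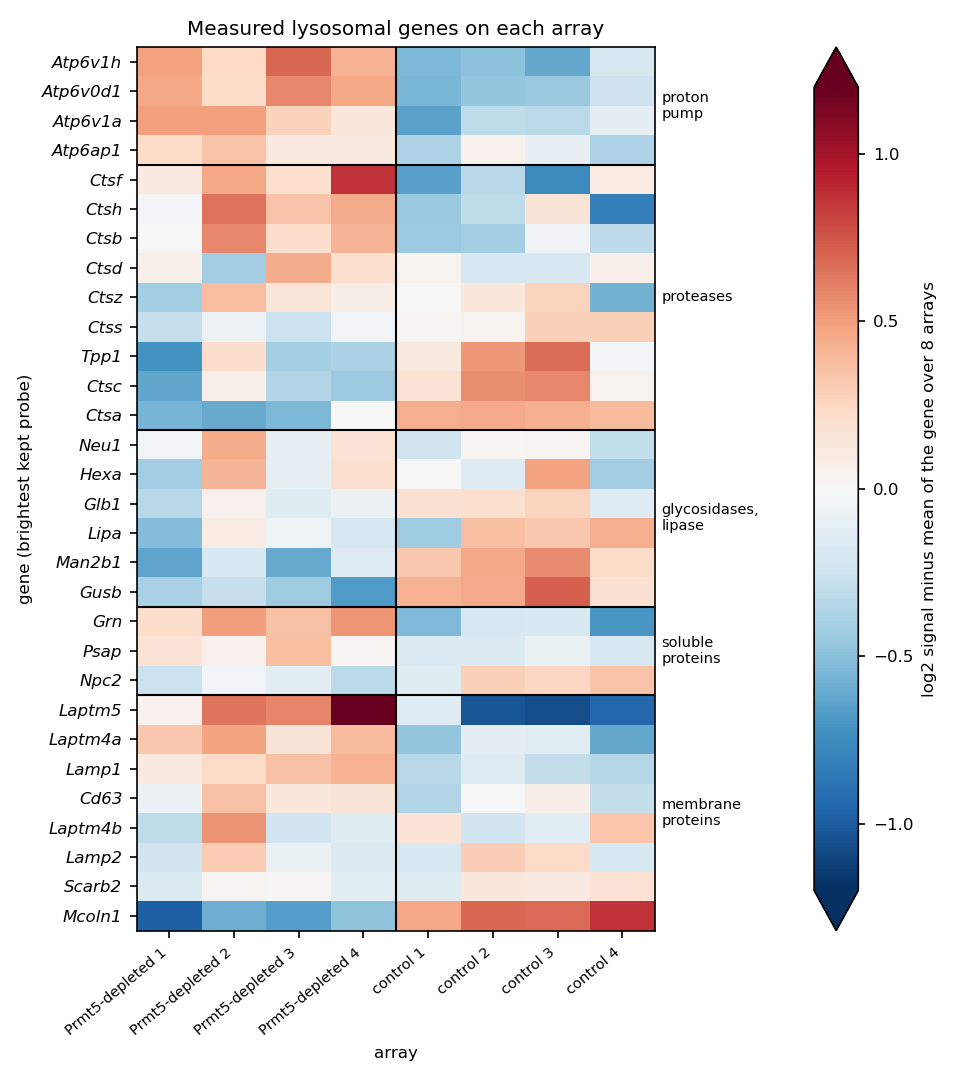
Log2 signal of each measured gene (rows, grouped by role) on each array (columns) minus the mean of that gene over the 8 arrays; red is above and blue below the mean, and the colour scale ends at 1.2. The pump genes are red on the 4 Prmt5-depleted arrays, Mcoln1 is blue on them, and the column of Prmt5-depleted 1 is the lowest of its genotype in 19 of 30 rows.

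Lists of related genes were counted in the same way. A list of further lysosomal membrane proteins and transporters also held tetraspanins that are not particular to lysosomes. Of its 20 measured genes, 6 fell (30%), 2 rose (10%) and 12 did not pass. Among all genes tested, 24.5% fell and 24.0% rose. Cd82, a tetraspanin, fell 3.57-fold, the iron transporter Slc11a2 fell 1.78-fold and the sialic acid exporter Slc17a5 fell 1.69-fold, while the peptide transporter Abcb9 rose 2.03-fold and Sidt2 rose 1.59-fold. Among 20 measured genes of enzyme sorting there were 6 rises (30%) and 2 falls (10%), and 12 did not pass. Sorl1, a sorting receptor rich in neurons, rose 3.90-fold, and Rab7, the GTPase of late endosomes, and Vps33a, a tethering protein, rose 1.74-fold and 1.69-fold. M6pr, a receptor for mannose 6-phosphate on new hydrolases, fell 1.40-fold, and Rab9, which returns such receptors to the Golgi, fell 1.42-fold. The 2 falls became 1 without Prmt5-depleted 1, Prmt5-depleted 3, control 3 or control 4.

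Genes of autophagy, which delivers cargo to lysosomes, rose or did not pass. Rises were called for 11 of the 20 measured and falls for 0, against 24.0% and 24.5% of all genes, and 10 rose without the 3 arrays that lay apart. The cargo receptor Sqstm1 rose 2.15-fold, and Map1lc3a and Gabarapl2, ubiquitin-like proteins of the autophagosome membrane, rose 2.23-fold and 2.17-fold. Of 16 measured relatives of TFEB and genes of nutrient sensing at the lysosome, 5 rose and 11 did not pass. The rises were 31.2% of this list, against 24.0% of all genes. Rragb, a GTPase that brings mTORC1 to lysosomes, rose by 0.59 on the log2 scale, Flcn, which acts on these GTPases, rose 1.41-fold and its partner Fnip1 rose 1.43-fold. The 5 rises became 3 without control 2, and 1 gene fell without Prmt5-depleted 2 or control 4. Tfe3, a relative of Tfeb, had a log2 change of -0.24 (adjusted p = 0.305). For both lists, as for the pump, the part of the higher neuronal marker signal given above was not tested.

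**Figure D5:**
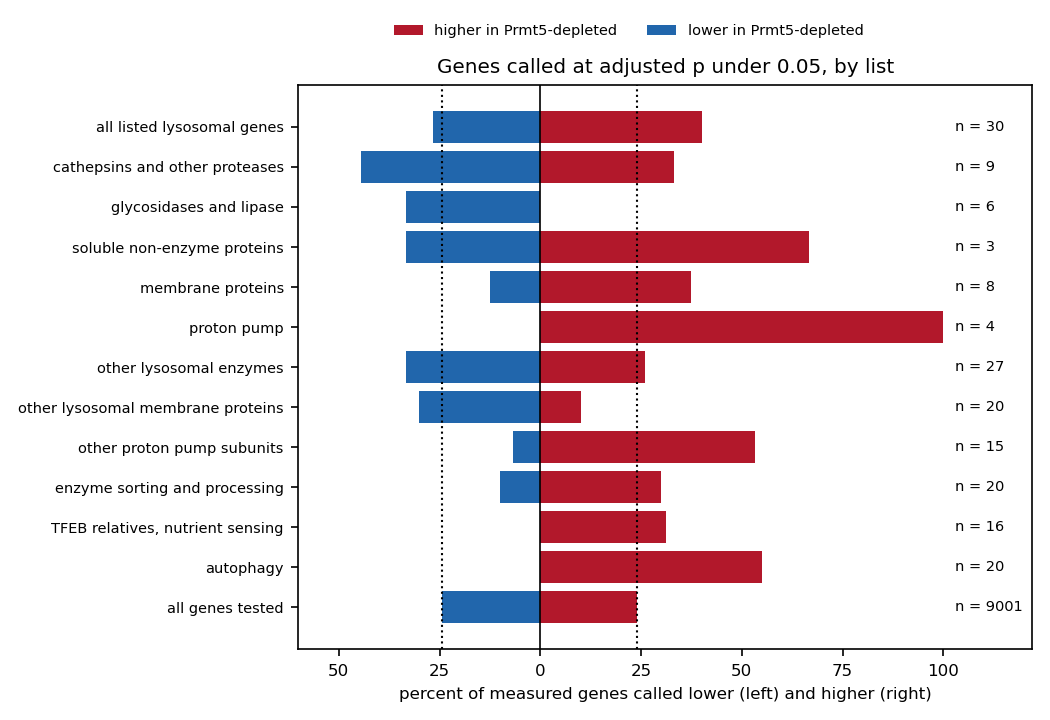
Percent of measured genes called higher (red, to the right) and lower (blue, to the left) in Prmt5-depleted cells for each role of the listed lysosomal genes, for related lists and for all genes tested; n is the number measured and dotted lines mark the 24.0% and 24.5% of all genes. The 4 pump genes are all higher, and 55% of the autophagy genes are higher with 0 lower.

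Markers of other cells also differed. Of 13 neural stem and progenitor markers with a probe, 11 were detected. Among the 9 measured, 5 fell (55.6%) and 2 rose (22.2%), beside 24.5% and 24.0% of all genes, with a median log2 change of -0.97. Hes5 and Hes1, targets of Notch signalling, fell 8.79-fold and 2.63-fold, and the transcription factors Sox2 and Sox9 fell 2.32-fold and 2.09-fold. In the other direction, Nes and Vim rose 1.32-fold and 1.46-fold, both without overlap. The list had a summed signal of 33019 to 36295 on Prmt5-depleted and 34633 to 39166 on control arrays, ranges that overlap although most measured members of the list were called, and Pax6 and Msi1 were not detected. All 7 measured markers of the oligodendrocyte lineage fell (sum 23092 to 27520 on Prmt5-depleted arrays against 36374 to 40522 on control arrays). Of these, Pdgfra and Gpr17 were detected on 0 Prmt5-depleted and 4 control arrays, so they passed the filter only through the control arrays. All 4 measured mesenchymal, pericyte and meningeal markers rose. Of these, Lum and Foxc1 were detected on 4 Prmt5-depleted and 0 control arrays, so they passed the filter only through the Prmt5-depleted arrays. The sum of this list was 1061 to 1291 on Prmt5-depleted arrays against 298 to 433 on control arrays. Col1a1, Foxd1, Pdgfrb and Tagln were not detected. Of 4 measured astrocyte markers 2 rose, Clu 10.1-fold and Slc1a2 2.17-fold. Aldh1l1 (1.28-fold higher) and Aldoc (1.3-fold lower) did not pass. Aqp4, which the filter left out, lay lower without overlap and was detected on 0 Prmt5-depleted and 3 control arrays. The astrocyte sum was 4023 to 5357 on Prmt5-depleted arrays against 3033 to 5221 on control arrays, with Gfap and S100b not detected. Esam, the 1 measured endothelial marker, rose 2.12-fold (sum 124 to 224 on Prmt5-depleted arrays against 80 to 116 on control arrays, with Cdh5, Pecam1, Tek and Tie1 not detected). The further lysosomal protease Ctsk, known from bone and connective tissue, rose 4.43-fold (adjusted p = 0.000102) in the same samples. The part of these cells in the lysosomal changes was not tested.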

How the data were processed

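The authors deposited intensity values per probe, not normalized, per the file headers, and beside each value the deposited table has its detection p-value. A second table of intensity values deposited by the authors equals quantile normalization of the first within 3.64e-12, on a linear scale without background correction, and served as an alternative. Its column medians lay between 95.7 and 95.8. Scanner software and genome build: not given in the sources used here. Signals were corrected by normexp from the detection p-values with an offset of 16, made equal in distribution by quantiles and log2-transformed (neqc, limma 3.58.1, R 4.3.3), which hides a change shared by most genes. Log2 values here are these, not the authors' deposited ones. Of the probes, 13196 (51.4%) passed the filter. Names came from the platform annotation (23943 probes with 1 gene, 0 with several, 1719 with none), and 0 of 23927 symbols changed in a RefSeq table of GRCm38.p6. A gene is its brightest kept probe.

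Genotypes were compared with lmFit and eBayes, two-sided, with Benjamini-Hochberg adjustment at 0.05 over all genes (or all probes) and no covariate, after a test on simulated data. Folds are on the scale with the offset and understate changes of dim probes. Arrays number 4 per genotype, which limits precision. The 36 genes and all lists were chosen with earlier results of these data known. Values of each array are given for called genes changed at least 2-fold and for Ctsd, Lamp1 and Tfeb by a written rule, and for Atp6v0d1, Ctsa, Gusb, Grn and Lamp2 after their values were seen, as were Ctsk, Tfe3 and the cell type markers with a fold named. Of other lists, up to 3 called genes per direction are named. Correlations of same-numbered arrays' deviations from their genotype means were -0.135, 0.244, -0.165 and -0.374. The labels do not say whether replicate numbers pair samples, and so few correlations cannot exclude it. Alternatives covered background, scaling, filter, probe choice, variance model, array weights, block and left-out arrays.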

Additional observations from a re-analysis of the deposited data

Results flagged for a closer look

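Among the 86 sets of 4 arrays that the 43 tested probes give, 4 held 1 array far from the other 3 by Dixon's ratio (the gap to the nearest array over the range of the genotype, above its 95% critical value). Chance gives about 1 set in 20. For Ctsa, Prmt5-depleted 4 was at 6.83 and the other Prmt5-depleted arrays at 6.23 to 6.29 (ratio 0.905). For Gusb at ILMN_2741114, control 4 was at 6.83 and the other controls at 7.32 to 7.37 (ratio 0.916). For Lipa, control 1 was at 5.78 and the other controls at 6.53 to 6.64 (ratio 0.876). For Laptm5, control 1 was at 6.16 and the other controls at 5.25 to 5.37 (ratio 0.863). In each of these 4 sets the array lay towards the other genotype.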

How the results depend on the processing

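Of 658 combinations of a measured gene and an alternative, 582 kept direction and call, 52 lost a call, 8 gained one and 16 changed sign. All 16 concern Ctsz, Hexa, Lamp2 and Laptm4b, which were not called. Ctsz became -0.092 with array weights and ran between -0.082 and 0.243 when 1 array was left out. Hexa became -0.026 with median scaling and -0.153 with array weights, and ran between -0.089 and 0.21 when 1 array was left out. Lamp2 became 0.211 as the mean of its probes and 0.623 at its dimmest probe, and ran between -0.197 and 0.007 with 1 array left out. Laptm4b became 0.01 with cyclic loess and 0.263 without the 3 arrays apart, and ran between -0.258 and 0.033 with 1 array left out. The cause was not tested, other than that the Lamp2 values of 0.211 and 0.623 draw on its other probes. The Lamp2 value of 0.007 is from the same probe as the main fit.

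The count of genes that fell was 5 with cyclic loess and 5 without the 3 arrays apart, in place of 8. Leaving out 1 array gave 10 to 12 higher and 5 to 9 lower genes, 14 to 17 higher and 9 to 13 lower probes, 3 to 4 higher pump genes and 4 to 7 lower hydrolases. In the related lists, it gave 0 to 1 lower pump genes, 1 to 3 lower sorting genes, and 3 to 6 higher and 0 to 1 lower nutrient sensing genes. Of 318 combinations of a count and an alternative, 301 stayed within 1.5 times. With a replicate block 11 genes rose and 6 fell, and 15 probes rose and 10 fell. Ctss, Psap and Npc2 lost their calls with this block. Whether the replicate numbers pair samples is not known. Median scaling moved the median of all genes to -0.08. Leaving out arrays on the related lists was chosen after seeing the data. Ctsl, Ctso, Gla and Tfeb were too dim to show a change.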
